A study of Homo sapiens with 6 samples.

Results

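The genes described here are CD180, its partner LY86, 6 Toll-like receptors (TLR1, TLR4, TLR6, TLR7, TLR9 and TLR10), their shared adaptor MYD88 and the receptor chaperone UNC93B1. These 10 genes, of 33616 genes with a probe set of 1 gene symbol, were chosen by name, and CD180 was chosen by its high level in long-term acid culture on these same arrays. Each gene was read from its probe set with the highest mean over the 6 arrays. RNA was measured in LP-1 cells, an established human multiple myeloma line, which is a tumour of plasma cells. The L.A. cells (long-term acid culture) lived in acid medium (extracellular pH, or pHe, 6.8), and their time label is 9 months, although the sample descriptions give 8 to 10 weeks and the series design 8 to 10 months. The S.A. cells (short-term acid culture) lived at the same pHe of 6.8, and their time label is 2 weeks, given elsewhere as 2 to 3 or 2 to 4 weeks. The Ctrl cells lived at pHe 7.4 and carry the 9 months label as well, so S.A. cells differed from both other groups in labelled time in culture. All 3 groups grew in RPMI-1640 medium with 15% serum at 37 °C, and each had 2 arrays, described as biological replicates of 1 line.

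CD180, also called RP105, is a surface protein of B cells and myeloid cells whose leucine-rich repeats resemble those of TLR4. It lacks the Toll/interleukin-1 receptor domain through which Toll-like receptors signal. LY86, also called MD-1, is a small secreted protein that binds the outer part of CD180 and helps it to reach the cell surface, as the related protein LY96 (MD-2) does for TLR4. TLR1, TLR6 and TLR4 sense microbial lipids or lipoproteins at the cell surface, where TLR10, a relative of TLR1 and TLR6 with less settled ligands, is also found, while TLR7 and TLR9 sense nucleic acids in endosomes, to which UNC93B1 carries them. After ligand binding, most of these receptors recruit MYD88, which leads to activation of NF-kappaB and of interferon regulatory factors. In B cells, CD180 signals mainly through the kinase LYN, and normal plasma cells are known to carry less CD180 than mature B cells.

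Promoter sequences are shown for CD180 and LY86, whose products act as a pair while only CD180 read above background (defined below). The promoter of MYD88 is shown as that of the member above background with its highest mean in S.A. cells. Each is the RefSeq sequence from 250 bases before to 50 bases after the annotated gene start in GRCh38.p14, read 5′ to 3′ on the gene's strand. Capitals mark GGAA and its reverse complement TTCC, the core letters bound by Ets-family factors such as PU.1. The positions are chr5:67196750-67197049 on the minus strand for CD180, chr6:6588470-6588769 on the plus strand for LY86 and chr3:38138411-38138710 on the plus strand for MYD88.
CD180: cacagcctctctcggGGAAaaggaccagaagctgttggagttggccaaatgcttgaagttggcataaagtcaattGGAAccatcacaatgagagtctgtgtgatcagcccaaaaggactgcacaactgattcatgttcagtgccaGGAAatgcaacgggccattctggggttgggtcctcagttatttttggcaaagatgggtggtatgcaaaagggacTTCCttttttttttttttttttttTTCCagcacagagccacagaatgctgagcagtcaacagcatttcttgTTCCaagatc
LY86: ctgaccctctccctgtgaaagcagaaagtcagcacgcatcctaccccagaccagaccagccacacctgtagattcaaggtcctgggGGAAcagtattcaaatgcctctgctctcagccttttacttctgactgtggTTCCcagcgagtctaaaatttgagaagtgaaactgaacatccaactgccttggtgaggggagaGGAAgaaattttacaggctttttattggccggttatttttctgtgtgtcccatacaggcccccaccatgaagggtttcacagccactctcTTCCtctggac
MYD88: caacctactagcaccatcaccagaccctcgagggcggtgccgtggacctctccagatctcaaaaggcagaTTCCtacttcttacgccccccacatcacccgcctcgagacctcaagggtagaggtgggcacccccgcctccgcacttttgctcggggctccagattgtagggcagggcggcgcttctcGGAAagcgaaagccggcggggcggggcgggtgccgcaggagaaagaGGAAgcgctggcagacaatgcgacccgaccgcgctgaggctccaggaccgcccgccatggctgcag

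The CD180 window held 6 such cores, the LY86 window 4 and the MYD88 window 3. The core is short and common: 95.5% of 35116 promoter windows of the same length held at least 1, with a median of 3. The longer letters GAGGAA, a PU.1-type core that contains GGAA, were counted on both strands as well, and were matched 0 times in the CD180 window, 2 times in the LY86 window and 1 time in the MYD88 window. They occurred in 27.9% of all windows. The E-box letters CANNTG were matched 3 times in CD180, 3 times in LY86 and 0 times in MYD88, and 68.7% of windows held them. None of these 3 windows held the octamer ATGCAAAT (1.77% of all windows) or TATAAA (11.5% of all windows). The windows differed in base composition: GC content was 45.0% for CD180, 49.7% for LY86 and 65.7% for MYD88, against a median of 58.7% over all windows. The MYD88 window held 25 CG dinucleotides, against 2 in CD180 and 3 in LY86. A match describes these letters only and is not a measured binding site. Windows for 6 of the 10 genes were matched in the table used (these 3, TLR4, TLR6 and TLR9).

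Levels are the authors' deposited values, taken to be on a log2 scale, on which a difference of 1 stands for a doubling of signal. Levels of different probe sets cannot be compared closely with each other, so differences were taken across groups for 1 gene. The background level is an exception and only a rough guide, since it sets a probe set against those of other genes. To describe background, 961 olfactory receptor, bitter taste receptor and keratin-associated protein genes were used, which are not expected in plasma cells. The median of their levels was 3.34 and their 95th percentile 4.60, and a group mean under that percentile is here called near background. By this measure, 7 of the 10 members were near background in all 3 groups: LY86 and all 6 Toll-like receptors. The other 3, CD180, MYD88 and UNC93B1, were above it in all 3 groups. A reading near background does not show that a transcript was absent. How well each probe set reports its transcript was not tested. Only 4 members (CD180, MYD88, UNC93B1 and TLR7) passed the filter on low values, a mean over the 6 arrays no lower than the median over probe sets (3.77). TLR7 lay just inside it, at a mean of 3.83, and TLR6 just outside, at 3.67.

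Differences between groups were tested with limma over the 21070 genes kept, with Benjamini-Hochberg adjustment over all of them, and called genes are those with an adjusted p below 0.05. In L.A. minus Ctrl, 3.20% of genes were called (1.61% higher, 1.59% lower). In S.A. minus Ctrl, 14.8% were called (6.23% higher, 8.55% lower), and in L.A. minus S.A. 15.9% (8.70% higher, 7.24% lower). In the deposited values, arrays numbered 1 and 2 hardly differed on average across groups: 1.18% of the sum of squares within groups ran along replicate number, against a share of 33.3% at random. The fit without this term uses 3 residual degrees of freedom, 1 more than remain, and its p-values, its standard errors and the SDs of 2 arrays tend to be too small. With replicate number as a block, 1.32% of genes were called in L.A. minus Ctrl, 6.39% in S.A. minus Ctrl and 8.65% in L.A. minus S.A., and the blocked p is given beside each call. Replicates of the same group correlated at 0.988 to 0.989 over all probe sets, and the median difference over the genes kept was -0.03, -0.04 and 0.01 in the same 3 comparisons. The number of arrays limits the precision of every value. Both acid groups were compared with the same Ctrl arrays.

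CD180 was much higher in L.A. cells than in either other group. Its levels were 17.29 and 16.80 in L.A. cells, against 8.83 and 9.94 in S.A. cells and 7.85 and 7.18 in Ctrl cells. The 3 groups did not overlap, and the order was L.A. over S.A. over Ctrl. The means were 17.04 ± 0.34 in L.A. cells, 9.38 ± 0.78 in S.A. cells and 7.51 ± 0.48 in Ctrl cells (SD, n = 2 each). The gap between the lowest L.A. array and the highest Ctrl array was 8.95, while that between the lowest S.A. array and the highest Ctrl array was 0.98. Because CD180 was chosen for this pattern, its differences are given as a description without a p. They were 9.53 ± 0.42 (SE) in L.A. minus Ctrl, 1.87 ± 0.42 in S.A. minus Ctrl and 7.66 ± 0.42 in L.A. minus S.A. Among the 21070 genes kept, the first was the largest difference in size (rank 1), the second ranked 277 and the third ranked 7.

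**Figure D1:**
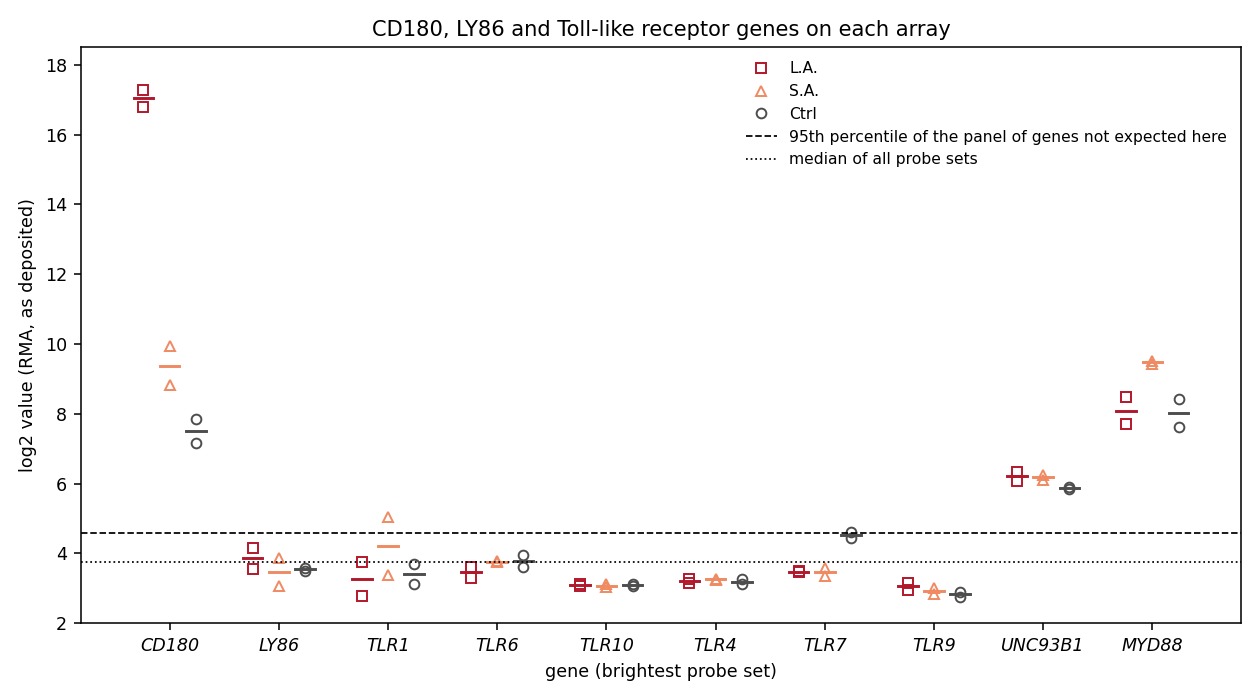
Level of each of the 10 members on every array (deposited log2 value, vertical axis) in L.A., S.A. and Ctrl cells, with symbols for arrays, a bar for the mean of 2 arrays, a dashed line at 4.60 (95th percentile of the background panel) and a dotted line at 3.77 (median of all probe sets). CD180 is between 16.80 and 17.29 on the L.A. arrays and under 10 on the other 4 arrays, MYD88 is highest on the S.A. arrays, and LY86 and the Toll-like receptors lie near or under the line.

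LY86, whose product is the partner of CD180, did not show the pattern of CD180. Its levels were 4.15 and 3.56 in L.A. cells, against 3.08 and 3.88 in S.A. cells and 3.60 and 3.49 in Ctrl cells. All 6 arrays were under the panel percentile, and the L.A. arrays overlapped with the S.A. arrays. The difference in L.A. minus Ctrl was 0.31 (95% interval -0.45 to 1.07), and in L.A. minus S.A. it was 0.38 (-0.39 to 1.14). A small difference in signal between groups is therefore not excluded by these arrays, while one near the size seen for CD180 lies outside the intervals. Because every reading was near background and the response of this probe set was not tested, the intervals bound its signal only. They do not bound a change in the LY86 transcript. These intervals come from the fit of all 33616 genes without the filter, in which LY86 and the 5 other members under the filter were each not called in any comparison. In that fit 1.66% of genes were called in L.A. minus Ctrl, 8.26% in S.A. minus Ctrl and 9.12% in L.A. minus S.A.

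The surface receptors read near background in every group. TLR4, the lipopolysaccharide receptor that CD180 resembles, read 3.28 and 3.14 in L.A. cells, 3.27 and 3.25 in S.A. cells and 3.13 and 3.26 in Ctrl cells. A second probe set named TLR4 read 2.78 to 3.32 over the 6 arrays. Neither TLR4 probe set came near the panel percentile. The difference of the brighter one in L.A. minus Ctrl was 0.01 (95% interval -0.30 to 0.32, and -0.48 to 0.50 with the block).

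TLR1, TLR6 and TLR10, which form a cluster of related genes on chromosome 4 and are partners or relatives of TLR2, also read near background. TLR10 read 3.08 and 3.13 in L.A. cells, 3.13 and 3.03 in S.A. cells and 3.06 and 3.12 in Ctrl cells, the narrowest range of the 10 members. TLR6 read 3.63 and 3.31 in L.A. cells, 3.76 and 3.78 in S.A. cells and 3.61 and 3.95 in Ctrl cells, so both L.A. arrays were under both S.A. arrays while L.A. and Ctrl arrays overlapped. The TLR6 difference in L.A. minus Ctrl was -0.31 (95% interval -0.75 to 0.12) and was not called. TLR1 read 3.77 and 2.78 in L.A. cells, 3.39 and 5.04 in S.A. cells and 3.69 and 3.12 in Ctrl cells. The single TLR1 value above the panel percentile was that of S.A. replicate 2. A second TLR1 probe set read 3.38 on that array and 3.19 to 3.57 over all 6. The TLR1 difference in S.A. minus Ctrl was 0.81 (95% interval -0.65 to 2.28) with the brighter probe set and 0.10 with the other.

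The endosomal receptor TLR7, a sensor of single-stranded RNA, was lower in both acid groups than in Ctrl cells, at a level close to background. It read 3.49 and 3.48 in L.A. cells, against 3.35 and 3.59 in S.A. cells and 4.61 and 4.44 in Ctrl cells. Both Ctrl arrays were above all 4 acid arrays, and 1 of them was above the panel percentile. The L.A. minus Ctrl difference was -1.04 ± 0.15 (SE; adjusted p = 0.0265 with limma, 0.105 with the block). The S.A. minus Ctrl difference was -1.05 ± 0.15 (adjusted p = 0.0110 with limma, 0.0406 with the block). The 2 acid groups differed by 0.01 (95% interval -0.36 to 0.38). TLR7 passed the filter only through its Ctrl arrays, so it could be tested only because it was higher there. The Ctrl mean, 4.53, lies under the percentile of the whole panel and above that of the 827 olfactory receptor genes alone (4.50).

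TLR9, the sensor of unmethylated CpG DNA, read 3.16 and 2.95 in L.A. cells, 2.85 and 3.00 in S.A. cells and 2.77 and 2.90 in Ctrl cells. All of these are under the panel percentile, and both L.A. arrays were above both Ctrl arrays by a gap of 0.05. The difference in L.A. minus Ctrl was 0.22 (95% interval -0.13 to 0.57) and was not called. UNC93B1, which moves TLR7, TLR9 and other receptors out of the endoplasmic reticulum, was above background throughout. It read 6.34 and 6.08 in L.A. cells, 6.11 and 6.26 in S.A. cells and 5.85 and 5.90 in Ctrl cells. The UNC93B1 differences were small and not called. In L.A. minus Ctrl the difference was 0.33 (95% interval -0.04 to 0.71, and -0.21 to 0.88 with the block, adjusted p = 0.298 with limma). In S.A. minus Ctrl it was 0.31 (-0.07 to 0.68, and -0.24 to 0.85 with the block, adjusted p = 0.239 with limma).

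MYD88, the adaptor used by these Toll-like receptors, was higher in S.A. cells than in the other 2 groups. It read 7.70 and 8.47 in L.A. cells, against 9.50 and 9.44 in S.A. cells and 8.43 and 7.63 in Ctrl cells. The S.A. arrays were above all others by a gap of at least 0.97, and the L.A. and Ctrl arrays overlapped. The S.A. minus Ctrl difference was 1.44 ± 0.34 (SE; adjusted p = 0.0430 with limma, 0.0554 with the block). The L.A. minus S.A. difference was -1.38 ± 0.34 (adjusted p = 0.0454 with limma, 0.0536 with the block). L.A. and Ctrl cells differed by 0.06 (95% interval -0.78 to 0.90; adjusted p = 0.954), so a difference of up to 0.90 is not excluded. Both MYD88 calls were just inside the threshold, and both were lost with the block. Without S.A. replicate 1, S.A. replicate 2 or Ctrl replicate 2, the adjusted p in S.A. minus Ctrl was 0.0846, 0.0829 and 0.121.

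**Figure D2:**
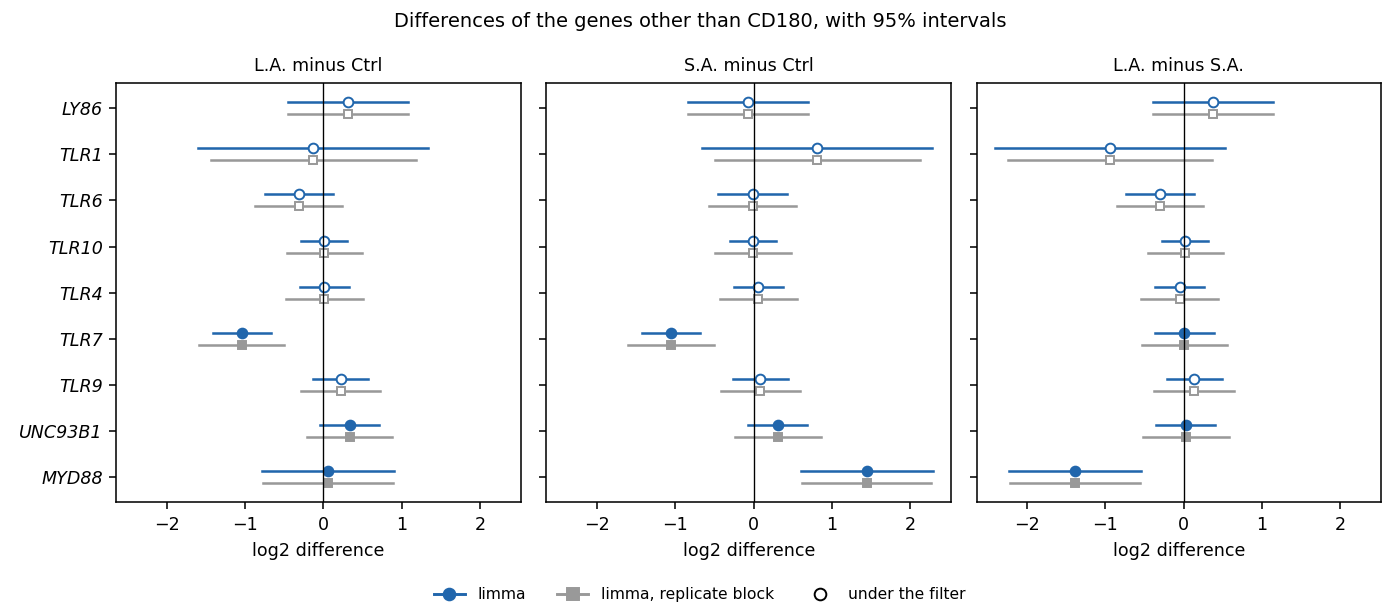
Difference of each member other than CD180 in L.A. minus Ctrl, S.A. minus Ctrl and L.A. minus S.A. (log2 scale, horizontal axis), with lines for the 95% intervals from limma without (circles) and with (squares) the replicate block; open symbols are members under the filter. TLR7 stands at -1.04 in L.A. minus Ctrl and -1.05 in S.A. minus Ctrl, and MYD88 at 1.44 in S.A. minus Ctrl and -1.38 in L.A. minus S.A., while the intervals of the other members include 0.

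Besides CD180, 3 members were tested among the genes kept. TLR7 was among them only because of its Ctrl level, which leaves MYD88 and UNC93B1. With so few members, no count is read against the share of all genes called.

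Other Toll-like receptors and co-receptors could be tested only in part, since TLR2, TLR3, TLR8, CD14 and LBP were under the filter. Of 8 genes listed (TLR2, TLR3, TLR5, TLR8, CD14, LY96, LBP and CD36), 3 passed the filter and 0 were called in any comparison with limma, with or without the block. So few genes are not read against the shares of all genes called (3.20% in L.A. minus Ctrl, 14.8% in S.A. minus Ctrl, 15.9% in L.A. minus S.A.). Their median difference was -0.16 in L.A. minus Ctrl, -0.02 in S.A. minus Ctrl and -0.14 in L.A. minus S.A. LY96, the TLR4 partner related to LY86, read 4.66 and 6.20 in L.A. cells, 5.85 and 5.29 in S.A. cells and 6.10 and 5.09 in Ctrl cells. It was thus above the panel percentile on all 6 arrays, and its groups overlapped.

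The next list holds genes that fold, carry or cleave these receptors. Of 12 listed, 11 had a probe set and 10 passed the filter. Of all genes kept, 3.20% were called in L.A. minus Ctrl, 14.8% in S.A. minus Ctrl and 15.9% in L.A. minus S.A. with limma. The counts in this and the following lists are too small to be read against those shares. In L.A. minus Ctrl, 0 rose and 1 fell (LRRC59, an endoplasmic reticulum protein that aids receptor traffic, at -0.86, adjusted p = 0.0320 with limma, 0.158 with the block). In S.A. minus Ctrl, 1 rose and 2 fell: TASL, the adaptor that links the transporter SLC15A4 to IRF5, at 0.86 (adjusted p = 0.0210), the endosomal protease LGMN at -1.02 (0.0382) and LRRC59 at -0.64 (0.0295). None of these 3 was called with the block (adjusted p = 0.0764, 0.0758 and 0.150). In L.A. minus S.A., 1 fell: CTSB, a lysosomal protease, read 14.22 and 14.41 in L.A. cells, against 15.53 and 16.04 in S.A. cells, a difference of -1.48 (adjusted p = 0.0179 with limma, 0.0240 with the block). The medians of the list were -0.19, 0.02 and -0.14 in L.A. minus Ctrl, S.A. minus Ctrl and L.A. minus S.A.

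Of 21 adaptors and proximal signalling genes, 16 had a probe set here and 14 passed the filter; IRAK1, IRAK3, IRAK4, TICAM2 and PIK3AP1 were not analysed here. In L.A. minus Ctrl, 1 rose and 0 fell. PELI2, a ubiquitin ligase that acts on IRAK kinases, read 10.73 and 10.66 in L.A. cells, 9.67 and 10.21 in S.A. cells and 9.30 and 8.81 in Ctrl cells. Its L.A. minus Ctrl difference was 1.63 ± 0.25 (SE; adjusted p = 0.0290 with limma, 0.0411 with the block). In S.A. minus Ctrl, 1 rose and 2 fell, namely the related ligase PELI1 at 0.65 (adjusted p = 0.0317), TAB1, an activator of the kinase MAP3K7, at -0.74 (0.0300), and the IkappaB kinase subunit CHUK at -0.59 (0.0476). The blocked p-values of these 3 were 0.145, 0.116 and 0.188. In L.A. minus S.A., PELI1 fell by 0.78 (adjusted p = 0.0173, 0.0845 with the block) and TAB1 rose by 0.69 (0.0340, 0.134 with the block). The medians were -0.05, 0.10 and -0.00 in the same 3 comparisons.

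The next list holds kinases and co-receptors through which CD180 signals in B cells. In L.A. minus Ctrl, 0 of its 7 genes kept were called by limma with or without the block, against 3.20% of all genes kept with limma. The median difference of the list was -0.16. LYN, the kinase next to CD180 in B cells, read 10.92 and 11.07 in L.A. cells, 10.82 and 10.68 in S.A. cells and 10.49 and 10.42 in Ctrl cells. The LYN difference of 0.54 in L.A. minus Ctrl was not called (adjusted p = 0.108 with limma). BTK and SYK, kinases of the B-cell receptor pathway, were under the filter. For S.A. against Ctrl cells, 0 rose and 1 fell: the tetraspanin CD81 read 4.29 and 3.58 in S.A. cells and 5.10 and 5.67 in Ctrl cells, a difference of -1.45 (adjusted p = 0.0282 with limma, 0.0406 with the block). In L.A. minus S.A., PRKCB, a kinase downstream of the B-cell receptor, rose by 1.19 (adjusted p = 0.0139, 0.0303 with the block). The complement receptor CR2, near background in every group, fell by 0.64 (0.0331, 0.152 with the block). The CR2 means were 3.61 in L.A. cells, 4.24 in S.A. cells and 3.92 in Ctrl cells. CR2 passed the filter only through its S.A. arrays, so it could be tested only because it was higher there. Its fall is therefore not read further. The medians of the list were -0.09 in S.A. minus Ctrl and 0.25 in L.A. minus S.A.

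Among 13 transcription factors downstream of Toll-like receptors, 10 passed the filter. In L.A. minus Ctrl, 2 rose and 0 fell, both interferon regulatory factors. IRF1 read 6.44 and 6.65 in L.A. cells, against 5.70 and 5.39 in S.A. cells and 4.78 and 4.84 in Ctrl cells, and its L.A. minus Ctrl difference was 1.73 ± 0.17 (SE; adjusted p = 0.00779 with limma, 0.0158 with the block). IRF8, a regulator of B-cell and myeloid genes, read 7.60 and 7.67 in L.A. cells, against 6.63 and 6.45 in S.A. cells and 6.32 and 6.45 in Ctrl cells. Its difference was 1.25 ± 0.14 in L.A. minus Ctrl (adjusted p = 0.0138 with limma, 0.0504 with the block) and 1.09 in L.A. minus S.A. (0.00647, 0.0266 with the block). In L.A. minus S.A., 2 rose and 0 fell, IRF8 and IRF1, the second at 1.0 (adjusted p = 0.0132, 0.0437 with the block).

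In S.A. minus Ctrl, 1 of these factors rose and 2 fell. IRF1 differed by 0.73 (adjusted p = 0.0375 with limma, 0.126 with the block), the NF-kappaB subunit NFKB2 by -1.02 (0.0251, 0.0620 with the block) and the subunit REL by -0.67 (0.0393, 0.147 with the block). None of the 3 was called with the block. The medians of the list were -0.26 in L.A. minus Ctrl, 0.01 in S.A. minus Ctrl and 0.20 in L.A. minus S.A. SPI1, which encodes PU.1, read 4.67 and 4.72 in L.A. cells, 4.57 and 4.67 in S.A. cells and 4.58 and 4.48 in Ctrl cells, values close to the panel percentile.

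Of 20 genes that Toll-like receptor signalling can induce, 18 had a probe set and 10 passed the filter; the cytokines IL6, TNF, IL1B, IL10, IL12B and CXCL8 were under it. In L.A. minus Ctrl, 0 rose and 1 fell: the adhesion molecule ICAM1 read 12.38 and 12.54 in L.A. cells, against 14.15 and 14.07 in Ctrl cells, a difference of -1.65 (adjusted p = 0.00640 with limma, 0.0158 with the block). In S.A. minus Ctrl, where 14.8% of all genes kept were called with limma, 3 rose and 3 fell (2 and 3 with the block). The largest were the chemokine CXCL10, which read 6.70 and 7.02 in S.A. cells, against 11.78 and 11.22 in Ctrl cells, the chemokine CCL3, which read 11.31 and 10.35 in S.A. cells, against 7.48 and 8.00 in Ctrl cells, and BIRC3, an inhibitor of cell death. Their differences were -4.64, 3.09 and -1.32, with adjusted p = 0.00111, 0.00549 and 0.00771 with limma and 0.000454, 0.00382 and 0.0207 with the block. The 2 chemokines thus moved in opposite directions in S.A. cells.

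In L.A. minus S.A., 1 induced gene rose and 2 fell, with the same counts under the block. CXCL10, at 12.33 and 12.44 in L.A. cells, rose by 5.52 (adjusted p = 0.000314, 5.92e-05 with the block), CCL3, at 6.64 and 6.86 in L.A. cells, fell by 4.08 (0.00165, 0.000583 with the block), and TNFAIP3, an inhibitor of NF-kappaB, fell by 1.05 (0.0105, 0.0352 with the block). The medians of the list were -0.21, 0.07 and -0.23 in L.A. minus Ctrl, S.A. minus Ctrl and L.A. minus S.A.

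**Figure D3:**
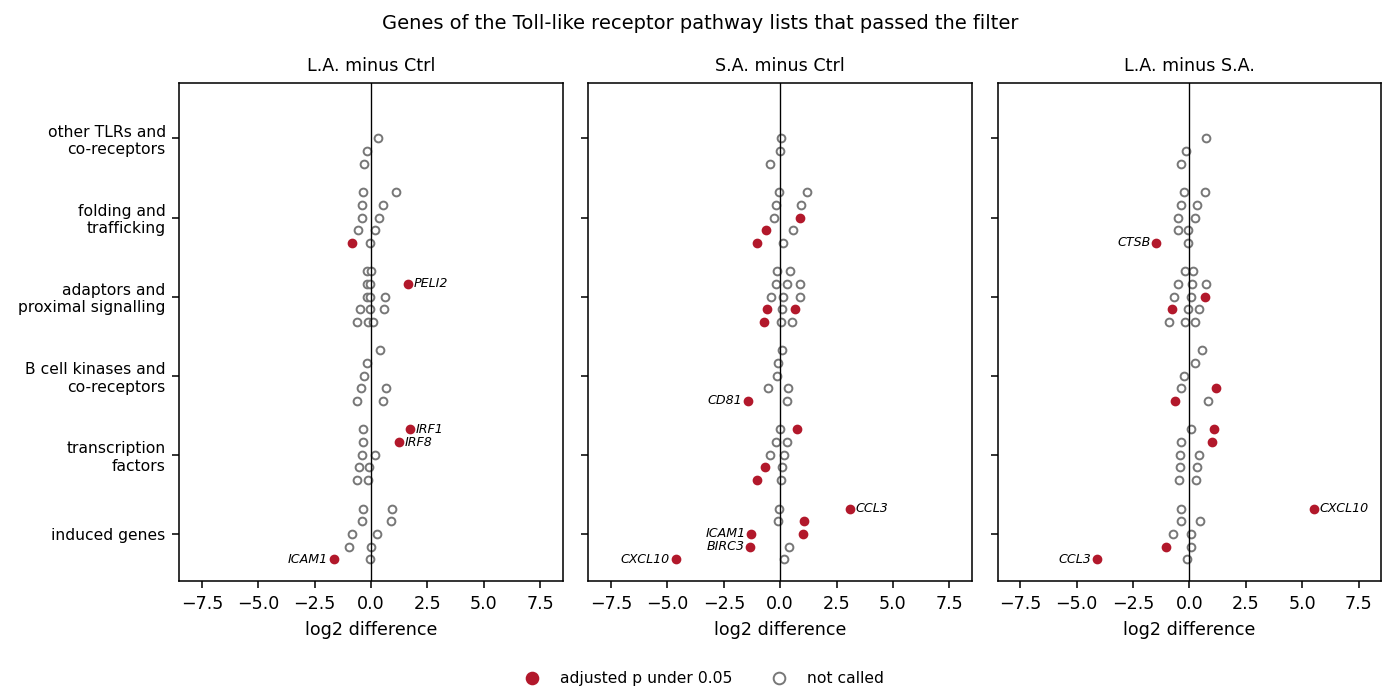
Differences of the genes kept from the 6 pathway lists in L.A. minus Ctrl, S.A. minus Ctrl and L.A. minus S.A. (log2 scale, horizontal axis), with 1 point per gene and filled points for genes called by limma at an adjusted p under 0.05. The largest are CXCL10 at 5.52 in L.A. minus S.A. and -4.64 in S.A. minus Ctrl and CCL3 at -4.08 and 3.09.

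Markers of cell types that usually carry CD180, LY86 and Toll-like receptors were examined beside these values. Their counts of calls are too small to be read against the shares of all genes called with limma. These were 3.20% in L.A. minus Ctrl, 14.8% in S.A. minus Ctrl and 15.9% in L.A. minus S.A. Of 9 plasma cell markers with a probe set, 9 were above the panel percentile in every group, as the label of a plasma cell tumour line implies. Of 8 B-cell markers with a probe set, 4 (CD79A, CD79B, BANK1 and BLK) were above it over the 6 arrays. MS4A1, which encodes CD20, read 4.81 and 4.65 in L.A. cells, against 3.51 and 4.07 in S.A. cells and 4.11 and 3.66 in Ctrl cells. This pattern was at the edge of background and was not called. Its L.A. minus Ctrl difference was 0.84, with 0.40 for BANK1, 0.31 for FCRL1 and 0.18 for CD79A. The same difference was -0.40 for PAX5, -0.31 for CR2 and -0.23 for CD79B. The summed log2 level of the 8 B-cell markers was 46.5 to 47.7 in L.A. cells, 45.7 to 46.5 in S.A. cells and 43.5 to 45.2 in Ctrl cells. In L.A. minus Ctrl, 1 B-cell marker rose, the kinase BLK at 2.00 (adjusted p = 0.0115 with limma, 0.0144 with the block), and in S.A. minus Ctrl 1 rose, CD79A at 2.22 (0.00354, 0.00419 with the block). In L.A. minus S.A., 1 rose and 2 fell: BLK at 2.72 (adjusted p = 0.00149, 0.00118 with the block), CD79A at -2.04 (0.00286, 0.00365 with the block) and CR2, given above. CR2 could be tested only because of its S.A. level, so its fall is not read further here either.

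Of 11 monocyte and macrophage markers, 0 were called in any comparison with limma (5 passed the filter). Neither this count nor that of the dendritic cell markers below is read against the shares of all genes called (3.20%, 14.8% and 15.9%). By the mean over the 6 arrays 9 of them were near background, with CD14 at 3.58 to 3.86 and LYZ at 2.91 to 3.36. The other 2 were S100A9, at 4.48 to 4.72 with overlapping L.A. and Ctrl arrays, and the scavenger receptor CD163. CD163 read 5.36 and 5.58 in L.A. cells, against 5.17 and 5.04 in S.A. cells and 5.14 and 5.16 in Ctrl cells (L.A. minus Ctrl 0.32). CSF1R, near background over the 6 arrays, differed the other way, at -0.26 in L.A. minus Ctrl. By group means, 2 markers of this list were above the percentile in L.A. cells, 1 in S.A. cells and 3 in Ctrl cells. The summed log2 level of the 11 markers was 42.0 to 42.6 in L.A. cells, 41.3 to 42.2 in S.A. cells and 42.2 to 42.5 in Ctrl cells. Of 7 dendritic cell markers, all were near background by the mean over the 6 arrays and 0 were called in any comparison with limma (3 passed the filter). In L.A. cells 1 of them, the interleukin-3 receptor subunit IL3RA, was above the panel percentile. It read 4.71 and 4.87 in L.A. cells, against 4.36 and 4.27 in S.A. cells and 4.16 and 3.99 in Ctrl cells. L.A. minus Ctrl differences were 0.72 for IL3RA, 0.44 for LILRA4 and 0.24 for FCER1A. They were -0.31 for CD1C, -0.28 for CLEC9A, -0.18 for CLEC4C and -0.04 for FLT3. The part of these cell types in the CD180 values was not tested. The dendritic cell markers had sums of 25.9 to 26.1 in L.A. cells, 25.1 to 26.4 in S.A. cells and 24.9 to 26.0 in Ctrl cells. In bulk RNA, more cells with a transcript and more RNA per cell cannot be told apart, so the CD180 values do not say how many L.A. cells carried it.

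Genes next to CD180 on chromosome 5 did not share its high level in L.A. cells. The 6 nearest protein-coding genes kept, ERBIN, SREK1, MAST4, PIK3R1, SLC30A5 and CCNB1, differed by -0.53 to 0.52 in L.A. minus Ctrl, with a median of -0.02 and 0 called. Their S.A. minus Ctrl median was 0.33, and 1 was called, CCNB1 at -1.58 (adjusted p = 0.0439 with limma, 0.0508 with the block). The 6 genes around LY86 on chromosome 6 had a median of -0.38 in L.A. minus Ctrl with 0 called. Across all 10 members, 0 of the neighbouring genes were called in L.A. minus Ctrl by limma, against 3.20% of all genes kept. TLR1, TLR6 and TLR10 have the same 6 neighbours, and so few genes are not read against that share. Neighbours were called in the other comparisons. The most in 1 direction were 2 of 6 around UNC93B1, which fell in S.A. minus Ctrl, and 3 of 6 around TLR9, which rose in L.A. minus S.A. None of the 3 around TLR9 was called with the block (adjusted p = 0.0753, 0.0642 and 0.14). Around UNC93B1, NUDT8 was called with the block (0.0255) and CHKA was not (0.0702). Around LY86, 0 were called in S.A. minus Ctrl, and around TLR4, 0 in L.A. minus S.A. The shares of all genes kept were 14.8% in S.A. minus Ctrl and 15.9% in L.A. minus S.A., and these few genes are not read against them. Around MYD88 on chromosome 3, 0 of 6 were called in S.A. minus Ctrl and their median was -0.37, against 1.44 for MYD88.

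**Figure D4:**
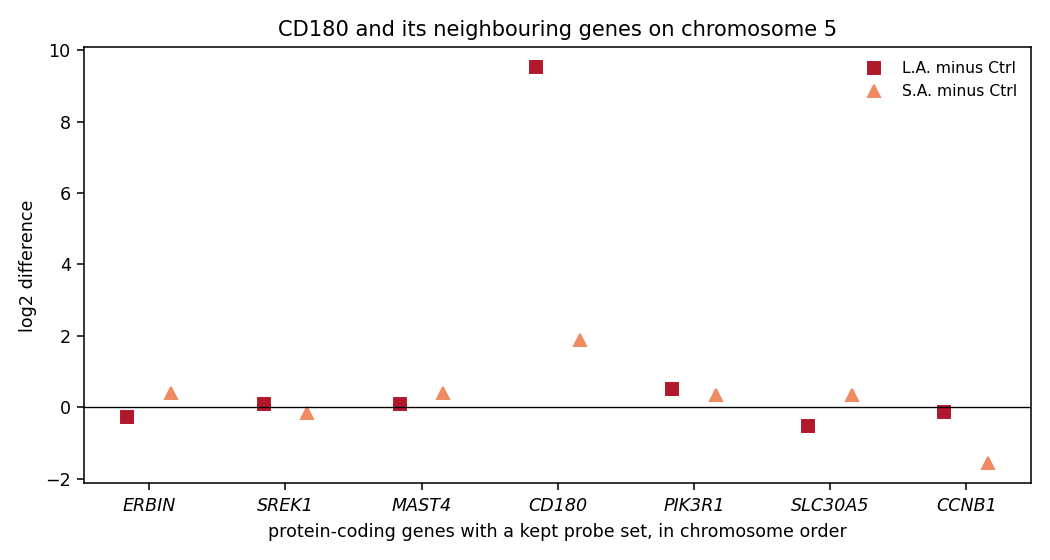
Differences (log2 scale, vertical axis) in L.A. minus Ctrl (squares) and S.A. minus Ctrl (triangles) of CD180 and of the 3 nearest protein-coding genes kept on either side, in chromosome order. CD180 stands at 9.53 and 1.87, while its neighbours lie between -0.53 and 0.52 in L.A. minus Ctrl.

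The genes most like a called or described member were found by the Euclidean distance over the 6 arrays after the Ctrl mean of each gene was subtracted, among 21069 other genes. For CD180 the closest was RANBP3L, at a distance of 3.16, followed by the muscle protein gene TTN at 5.89 and the meiosis gene SYCP3 at 7.42. RANBP3L read 13.01 and 12.51 in L.A. cells, against 4.83 and 4.64 in S.A. cells and 4.12 and 4.82 in Ctrl cells. It was therefore near background or just above it in both other groups, while CD180 was well above background in all 3. For TLR7 the closest were MARVELD1 at 0.25, RPS27P15 at 0.26 and STRAP at 0.27, and for MYD88 they were FRMPD4 at 0.36, GYS1 at 0.42 and ITM2B at 0.45. GYS1, the muscle-type glycogen synthase, read 10.01 and 10.53 in L.A. cells, 11.64 and 11.62 in S.A. cells and 10.28 and 9.94 in Ctrl cells, highest in S.A. cells as MYD88 was. The distances are a description over 6 arrays only.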

How the data were processed

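RNA of LP-1 cells was measured on 6 arrays, 2 each for L.A., S.A. and Ctrl. The deposited values are taken to be log2 levels, made by the authors with RMA and the Transcriptome Analysis Console per the submitters' processing notes. Their parameters, the log base and the genome build: not given in the sources used here. Fold sizes therefore assume base 2. Values ran to 20.0, and array medians from 3.77 to 3.80. No detection calls were used.

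Of 135574 probe sets, 36176 had 1 gene symbol in the platform annotation, 1119 had several and 98279 had none. Of 25555 with a gene ID, 25516 matched the RefSeq gene table of GRCh38.p14, used for symbols and gene order. The brightest probe set stood for each of 33616 symbols, and 21070 with a mean at or above 3.77 were kept. TLR1 and TLR4 had 2 probe sets each, and the brighter one of TLR4 carried a symbol but no gene ID.

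Groups were compared with limma 3.58.1 in R 4.3.3 (group means over 6 arrays, empirical Bayes without trend, two-sided, Benjamini-Hochberg), tested on simulated data with known changes. The simulated arrays varied independently, unlike the deposited values, which hardly differ along replicate number. That test therefore does not show that the p-values without the block are of the right size here. The deviations of same-numbered arrays correlated at -0.57, -0.47 and -0.41. Values without a replicate term give negative correlations by construction, so these do not show whether the numbers pair samples; no label ties a number to a shared batch, and the block served as an alternative. The other alternatives were the filter, array centring, the mean of probe sets and leaving out each array. The replicates are described as biological, but nothing more says whether they were separate cultures.

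The members, pathway lists and markers were chosen with earlier results of these data known. All 10 members are named, and from each pathway list up to 3 called genes with the largest difference in a comparison. LY96, LYN, SPI1 and the cell type markers with values, as well as GYS1, were picked after their values were seen.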

Additional observations from a re-analysis of the deposited data

Results flagged for a closer look

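Both acid groups were set against the same Ctrl arrays, so their 2 differences from Ctrl differ by the L.A. minus S.A. difference itself. L.A. and S.A. cells also differed in labelled time in culture (9 months and 2 weeks), and no Ctrl arrays carry the 2 weeks label. Length of acid culture and time in culture cannot be told apart here. For CD180 the L.A. minus S.A. difference was 7.66. CD180 was chosen for that pattern, so no p is given. For MYD88 it was -1.38 (adjusted p = 0.0454 with limma, 0.0536 with replicate number as a block), with both S.A. arrays above both L.A. arrays. No explanation was tested for either.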

How the results depend on the processing

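With the replicate block, the genes called numbered 279 in L.A. minus Ctrl, 1347 in S.A. minus Ctrl and 1823 in L.A. minus S.A. Without it they numbered 675, 3113 and 3360. Of the 3 members tested besides CD180, 0, 1 and 0 were called with the block, against 1, 2 and 1 without it. Without the block these were TLR7, then TLR7 and MYD88, then MYD88. The 1 left with the block was TLR7. TLR7 passed the filter only through its Ctrl arrays, so no member count in this section is read against the share of all genes called. With no filter and the replicate block together, chosen after seeing the data, 232, 1102 and 1569 genes and 0, 1 and 0 members were called. With no filter alone, 1 member was called in S.A. minus Ctrl and 0 in L.A. minus S.A. In both settings with no filter, the member called in S.A. minus Ctrl was TLR7. A stricter filter, a mean of at least 5, leaves out TLR7 by construction and called 0 members in L.A. minus Ctrl and 1 in S.A. minus Ctrl. Leaving out 1 array at a time gave 195 to 674, 1134 to 2486 and 1503 to 2931 genes, and 0 to 1, 1 to 2 and 0 to 1 members. The CD180 differences ranged over all alternatives from 9.19 to 9.87, 1.32 to 2.42 and 7.11 to 8.21. TLR7 in L.A. minus Ctrl lost its call without any 1 of the 4 arrays compared (adjusted p = 0.0237 to 0.142 over the alternatives), and in S.A. minus Ctrl only without Ctrl replicate 1 (0.0514). The adjusted p of MYD88 ranged from 0.0259 to 0.121 in S.A. minus Ctrl and from 0.0182 to 0.150 in L.A. minus S.A. Differences near 0 turned sign: TLR7 in L.A. minus S.A. was -0.0010 with arrays centred on their medians and -0.11 to 0.13 without 1 array, MYD88 in L.A. minus Ctrl was -0.35 to 0.46 and UNC93B1 in L.A. minus S.A. -0.10 to 0.15 without 1 array. The background level was 4.60 by the panel and 3.77 by the median of all probe sets; by the second, LY86 in L.A. cells (3.86), TLR1 in S.A. cells (4.22) and TLR6 and TLR7 in Ctrl cells (3.78 and 4.53) were above it. The cause of these shifts was not tested.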

Other observations

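Of the 9 plasma cell markers, used above only to check the cell type, 1 rose and 1 fell in L.A. minus Ctrl. In S.A. minus Ctrl 3 rose and 0 fell, and in L.A. minus S.A. 1 rose and 2 fell. Of all genes kept, 3.20%, 14.8% and 15.9% were called with limma in these comparisons, and 9 genes are too few to be read against those shares. SDC1, IRF4, XBP1, MZB1 and JCHAIN were called in no comparison. SLAMF7, a surface receptor of plasma cells, read 7.47 and 7.42 in L.A. cells, against 16.67 and 16.87 in S.A. cells and 14.71 and 14.48 in Ctrl cells, and its L.A. minus Ctrl difference was -7.15 (adjusted p = 0.000125 with limma, 3.42e-05 with replicate number as a block). CD38, an enzyme on the plasma cell surface, read 19.05 and 19.14 in L.A. cells, against 17.46 and 17.44 in S.A. cells and 17.53 and 17.36 in Ctrl cells, and its L.A. minus Ctrl difference was 1.65 (adjusted p = 0.00641 with limma, 0.0158 with the block). TNFRSF17, the receptor BCMA, read 13.85 and 13.78 in L.A. cells, against 16.67 and 16.36 in S.A. cells and 14.14 and 14.30 in Ctrl cells, with differences of 2.29 in S.A. minus Ctrl (adjusted p = 0.00216 with limma, 0.00291 with the block) and -2.70 in L.A. minus S.A. (0.000732, 0.000641 with the block). The adhesion molecule NCAM1, listed with the T and NK cell markers and known from myeloma cells, read 4.45 and 4.76 in L.A. cells, 12.60 and 11.76 in S.A. cells and 5.10 and 5.54 in Ctrl cells, and its S.A. minus Ctrl difference was 6.86 (adjusted p = 0.00111 with limma, 0.000147 with the block).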
